A study of Mus musculus with 9 samples.

Results

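Cytosolic ribosomal proteins are the protein components of the ribosome that translates nuclear-encoded mRNA. Those of the small (40S) subunit hold the mRNA and the decoding site. Those of the large (60S) subunit surround the peptidyl transferase centre and the exit tunnel, and the acidic P proteins of the 60S stalk recruit elongation factors. In mammals their mRNAs are among the most abundant of a growing cell, and most begin with a C followed by a run of pyrimidines, the 5′ terminal oligopyrimidine (TOP) element, through which mTORC1 signalling adjusts their translation. Osteoblasts that deposit matrix secrete large amounts of collagen, which makes translation a central activity of this lineage.

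Genes were taken by symbol, Rpl, Rps or Rplp followed by a number and at most a letter and a further number, from probe sets of the array that carry 1 gene symbol. A gene with several such probe sets was represented by the brightest of them on average over the arrays. This gave 60 genes among the 19937 genes tested, 22 of the 40S subunit and 38 of the 60S subunit. Of these, 7 carry an l in the symbol after the protein's number (Rpl3l, Rpl7l1, Rpl10l, Rpl32l, Rpl39l, Rps4l and Rps27l), a mark mostly given to paralogs of a ribosomal protein gene, and the other 53 do not. RefSeq lists 59 of the 60 as protein coding and Rps4l as a transcribed pseudogene.

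MC3T3-E1 subclone 4, a line of mouse preosteoblasts from calvaria, was infected with a lentivirus that expresses a short hairpin RNA (shRNA) and green fluorescent protein, and fluorescent cells were sorted and grown to near confluence. shRunx2 day 9 cells carried a single hairpin sequence against Runx2, the transcription factor that commits cells to the osteoblast lineage, and were differentiated for 9 days with ascorbic acid and beta-glycerophosphate. Scr day 9 cells carried a scrambled hairpin and had the same 9 days of differentiation. Scr day 0 cells carried the scrambled hairpin and were collected while proliferating, so all 3 groups were infected and sorted, and no uninfected cells or shRunx2 cells at day 0 are among the samples analysed here. Each group had 3 biological replicates, each on 1 Affymetrix Mouse Gene 1.0 ST array. Values are log2 expression after robust multichip average (RMA) normalization, which includes quantile normalization across arrays. The array medians over all probe sets still differed by day, at 8.48 to 8.51 in shRunx2 day 9, 8.47 to 8.49 in Scr day 9 and 8.42 to 8.45 in Scr day 0. The values show the standing of a transcript among the others of a sample, and cells with less RNA overall cannot be told apart from cells with more, just as fewer cells of a type and less RNA per cell cannot be told apart. Runx2 itself is not analysed here.

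The sequences around the annotated start sites bear on whether the genes that moved share the TOP-like feature of the family. RefSeq promoter entries (assembly GRCm38.p6) were found for 48 of the 60 genes. A run of 6 or more pyrimidines between 10 bases before and 30 bases after the first listed start, on the sense strand, was present in 28 of these 48 (58.3%), against 35.1% of the first listed promoters of all genes. The windows below run from 10 bases before the start to 20 after it, 5′ to 3′ on the strand of the gene, and capitals mark the longest pyrimidine run where it has 6 or more bases. They end earlier than the stretch searched for the count. Rpl37a, with a run of 7 bases in that longer stretch, was counted but is printed without capitals. The windows are shown for 7 genes with the smallest adjusted p-values in either main comparison and for the 6 genes with an l symbol that have an entry. Rpl23a, which had the smallest adjusted p of the knockdown comparison, had no entry and is not shown.

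Rps12, chr10:23787190-23787219, minus strand: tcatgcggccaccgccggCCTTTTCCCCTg
Rpl14, chr9:120571507-120571536, plus strand: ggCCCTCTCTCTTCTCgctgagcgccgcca
Rpl37a, chr1:72711250-72711279, plus strand: ctcgccggtctaaaaccgcgcatgcgcatt
Rps3a1, chr3:86142649-86142678, minus strand: gccggaagggcgaaagagcaagggtcacgt
Rps21, chr2:180257369-180257398, plus strand: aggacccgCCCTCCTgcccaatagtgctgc
Rps9, chr7:3704031-3704060, plus strand: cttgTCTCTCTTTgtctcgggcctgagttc
Rps19, chr7:24884582-24884611, plus strand: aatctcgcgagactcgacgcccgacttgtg
Rpl3l, chr17:24727816-24727845, plus strand: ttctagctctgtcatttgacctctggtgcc
Rpl10l, chr12:66284382-66284411, minus strand: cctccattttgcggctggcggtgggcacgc
Rpl32l, chr10:20208429-20208458, plus strand: aaatgaccagCTTCTTCCTTggtgctgcct
Rpl39l, chr16:10170218-10170247, plus strand: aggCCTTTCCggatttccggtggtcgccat
Rpl7l1, chr17:46782637-46782666, minus strand: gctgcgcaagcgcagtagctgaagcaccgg
Rps27l, chr9:66946076-66946105, plus strand: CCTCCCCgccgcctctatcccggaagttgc

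An annotated start may lie some bases from the one the cells use, so a window without a run, such as that of Rps19, says only that these letters are not at the listed start. Other motifs were searched on both strands in the 250 bases before and 50 after the start. CCGGAAG, a core of Ets family sites, was in 17 of the 48 promoters (35.4%), against 9.12% of the first listed promoters of all genes. GGGCGG, the GC box bound by Sp and Klf factors, was in 27 (56.2%), against 35.9%. TGTGGT, the core that Runx proteins bind, was in 5 (10.4%), against 16.9%. CACGTG, the E-box bound by Myc, was in 4 (8.33%), against 7.24%, and TATAAA was in 5 (10.4%), against 14.2%. These are matches of letters and not sites shown to be bound.

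As a group the ribosomal protein genes were strongly expressed. Their mean levels over the 9 arrays ran between 6.45 for Rpl39l and 14.03 for Rpl9, with a median of 12.47, against a median of 8.83 over all genes, and 57 of the 60 lay above that median. A level depends on the probes as well as on the transcript, so it does not rank genes among themselves. The spread between replicates within a group was similar to that of other genes, with a median pooled SD of 0.0649 for the ribosomal protein genes and 0.0598 for all genes. Labelled identity was checked against marker genes. Of 9 osteoblast lineage markers measured, 6 were higher in Scr day 9 than in Scr day 0, with Ibsp (bone sialoprotein) up by 3.76 ± 0.04 and Alpl (tissue-nonspecific alkaline phosphatase) by 1.39 ± 0.07 (log2 change ± SE). Of the same 9 genes, 4 were lower in shRunx2 day 9 than in Scr day 9, among them Phex (change of −1.94 ± 0.06) and Sp7, the transcription factor osterix (−0.21 ± 0.04). Markers of adipocytes, skeletal muscle, macrophages and leukocytes, endothelium and chondrocytes had median levels between 7.58 and 9.00 on every array. Of these 29 genes, 1 passed in the knockdown comparison (Sox9, of the chondrocyte list, higher) and 2 in the differentiation comparison (Cd14 and Ckm, lower). Over all genes, 2.73% were higher and 4.66% lower in the knockdown comparison, and 14.5% were higher and 17.1% lower in the differentiation comparison. The part of these markers in the results below was not tested.

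The first comparison, shRunx2 day 9 with Scr day 9, asked whether knockdown of Runx2 in differentiating cells went with a difference in ribosomal protein mRNAs. The differences were small, and most were downward. Rpl23a, Rps9, Rps19 and Rps21 were lower in shRunx2 cells, by 1.16 to 1.22 fold, at a Benjamini-Hochberg adjusted p under 0.05 in a limma model over all 19937 genes, and none of the 60 genes was higher (2 at an unadjusted p under 0.05, with 20 lower at that level). These 4 genes are 6.67% of the 60, beside a background of 4.66% of all genes called lower and 2.73% called higher, so the share called lower was close to that of genes in general. None of the 60 reached 1.5 fold, a size that 0.592% of all genes reached with an adjusted p under 0.05.

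Rps9, a 40S protein beside the mRNA entry channel whose bacterial relative S4 influences decoding accuracy, measured 12.09, 12.08 and 12.28 in shRunx2 day 9 cells, against 12.51, 12.41 and 12.37 in Scr day 9 cells. All 3 shRunx2 arrays lay below all 3 Scr day 9 arrays, and shRunx2 replicate 3 lay nearest to them. The log2 change was −0.28 ± 0.06 (SE, n = 3 each, limma adjusted p = 0.0155).

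Rps19 is required for maturation of the 18S ribosomal RNA, and in humans it is the gene most often mutated in Diamond-Blackfan anaemia. It measured 11.24, 11.36 and 11.46 in shRunx2 day 9 cells, against 11.56, 11.63 and 11.60 in Scr day 9 cells. The groups did not overlap, and shRunx2 replicate 1 was the lowest array of the 6. The change was −0.24 ± 0.05 (limma adjusted p = 0.0179).

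Rps21, a small protein of the 40S subunit, measured 10.77, 10.94 and 10.88 in shRunx2 day 9 cells, against 11.13, 11.01 and 11.09 in Scr day 9 cells. The nearest arrays of the groups, shRunx2 replicate 2 and Scr day 9 replicate 2, lay close together without overlap. The change was −0.21 ± 0.05 (limma adjusted p = 0.0273).

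Rpl23a sits beside the exit of the peptide tunnel, where the signal recognition particle docks. It measured 12.63, 12.59 and 12.68 in shRunx2 day 9 cells, against 12.83, 12.90 and 12.85 in Scr day 9 cells. These 2 groups stood clear of each other with little spread within either, and the change was −0.23 ± 0.05 (limma adjusted p = 0.0129). Just outside the threshold were Rps12 (change of −0.14 ± 0.04, limma adjusted p = 0.0577) and Rpl37a (−0.13 ± 0.04, limma adjusted p = 0.0667).

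**Figure D1:**
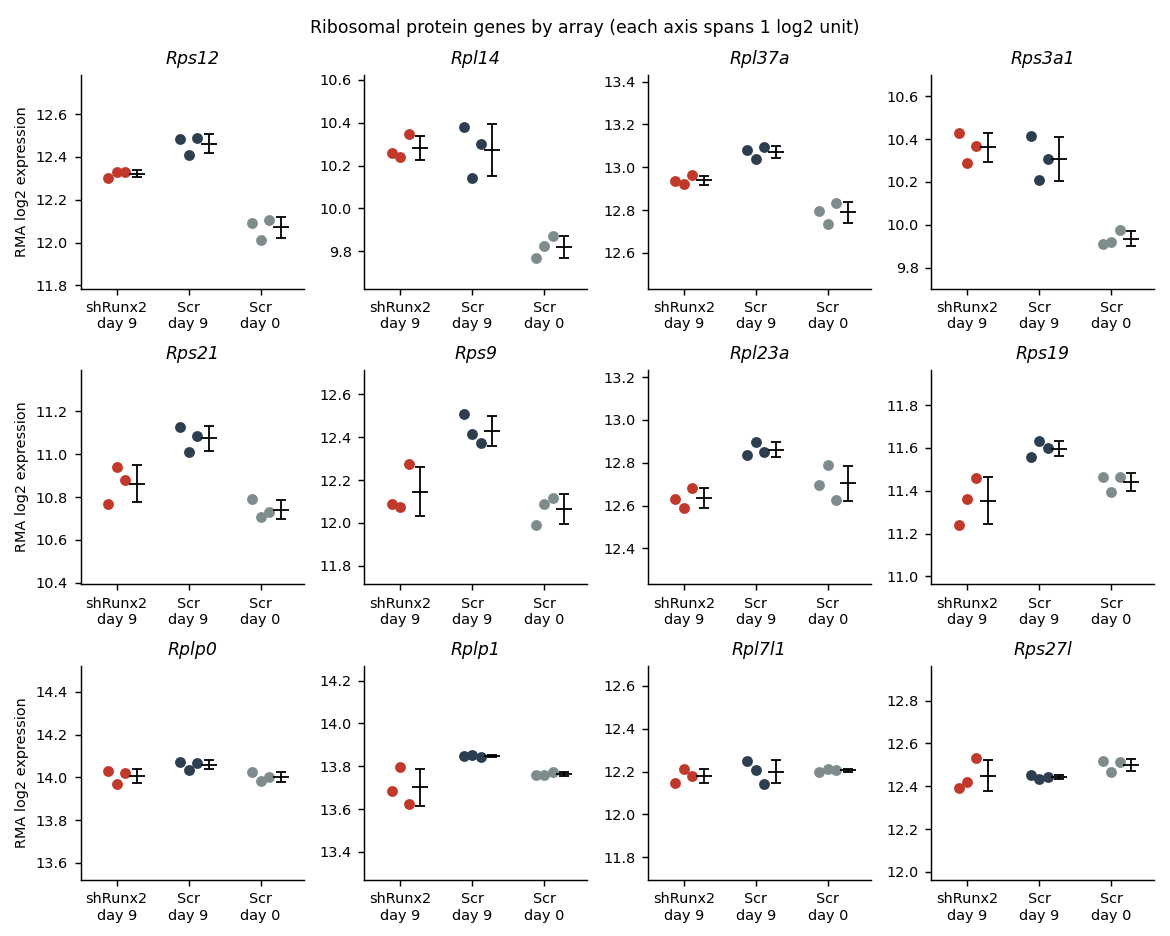
RMA log2 expression of 12 ribosomal protein genes on each array (points, replicates 1 to 3 left to right) in shRunx2 day 9, Scr day 9 and Scr day 0 cells, with the group mean and SD (bars, n = 3); every panel spans the same log2 range around its own centre. Rps9, Rps19, Rps21 and Rpl23a are lower in shRunx2 day 9 than in Scr day 9, Rps12, Rpl14, Rpl37a and Rps3a1 are lowest in Scr day 0, and Rplp0, Rpl7l1 and Rps27l are nearly level.

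Over the 60 genes the median log2 change was −0.06, against −0.0041 over all genes, and the changes ran between −0.28 and 0.15. Part of this shift was shared by strongly expressed genes. The 9968 genes above the median level, 57 of the 60 among them, had a median change of −0.03. The shares that follow are set beside all genes only. Changes were below 0 for 43 of the 60 (71.7%), beside 52.1% of all genes. All 3 shRunx2 arrays lay below all 3 Scr day 9 arrays for 23 genes (38.3%), beside 15.3% of all genes, and above them for 3 genes (5%), beside 8.34%. Those 3 were Rps4l, Rps6, the substrate of the S6 kinases, and Rpl41, which encodes the smallest protein of the ribosome. Rps6 and Rpl41 were outside the rule for naming genes and were picked after their values were seen.

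The 40S genes had a median change of −0.10, with 3 of 22 called lower. The 60S genes had a median of −0.04, with 1 of 38 called lower, and the difference between the subunits was not tested. The calls rested on single arrays. Without shRunx2 replicate 1 none of the 60 genes passed, and without shRunx2 replicate 2 or any 1 of the Scr day 9 arrays 2 passed. When shRunx2 replicate 2 or Scr day 9 replicate 2 was left out, only 1 of those 2 was among the 4 genes called with all arrays. Restricting the test to the 9968 genes above the median level, which lightens the adjustment, gave 10 of 57 called lower (17.5%), beside 12.1% of the genes tested there.

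The second comparison, Scr day 9 with Scr day 0, asked how ribosomal protein mRNAs differed between differentiating and proliferating cells. Here 30 of the 60 genes (50%) were higher at day 9 and none was lower (1, Rps4l, at an unadjusted p under 0.05), beside backgrounds of 14.5% of all genes called higher and 17.1% called lower. The changes were again modest, between −0.14 and 0.45 on the log2 scale, and none reached 1.5 fold, which 5.14% of all genes did with an adjusted p under 0.05. Among the 9968 genes above the median level, 25.9% were called higher and 32.4% lower, and of the 57 ribosomal protein genes among them 30 (52.6%) were higher and none lower.

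Rps12, a 40S protein known in Drosophila for its part in cell competition, measured 12.48, 12.41 and 12.49 in Scr day 9 cells, against 12.09, 12.01 and 12.11 in Scr day 0 cells. Its groups were far apart relative to their spread, and it had the smallest adjusted p of the 60 genes. The change was 0.39 ± 0.04, or 1.31 fold (SE, n = 3 each, limma adjusted p = 1.24e-05).

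Rpl14, a 60S protein, had the largest change of the 60 genes. It measured 10.38, 10.14 and 10.30 in Scr day 9 cells, against 9.77, 9.82 and 9.87 in Scr day 0 cells. Every day 9 array exceeded every day 0 array, and the change was 0.45 ± 0.06, or 1.37 fold (limma adjusted p = 9.24e-05).

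Rpl37a, a zinc-binding protein of the 60S subunit, measured 13.08, 13.04 and 13.09 in Scr day 9 cells, against 12.80, 12.73 and 12.83 in Scr day 0 cells. Its change of 0.28 ± 0.04 was smaller than that of Rpl14 but rested on tighter replicates (limma adjusted p = 1.24e-04).

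Rps3a1 encodes the 40S protein eS1, which lies near the exit of the mRNA channel. It measured 10.41, 10.21 and 10.30 in Scr day 9 cells, against 9.91, 9.92 and 9.97 in Scr day 0 cells. Again no array of either group entered the range of the other, and the change was 0.37 ± 0.05 (limma adjusted p = 2.38e-04).

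Rps21 and Rps9, described above in the knockdown comparison, completed the 6 genes with the smallest adjusted p. Rps21 had the 3 Scr day 9 values given above, against 10.79, 10.71 and 10.73 in Scr day 0 cells, a change of 0.33 ± 0.05 (limma adjusted p = 3.08e-04). Rps9 measured 11.99, 12.09 and 12.12 in Scr day 0 cells, and its change was 0.37 ± 0.06 (limma adjusted p = 6.03e-04). For both, no day 9 array of the scrambled hairpin overlapped day 0.

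**Figure D2:**
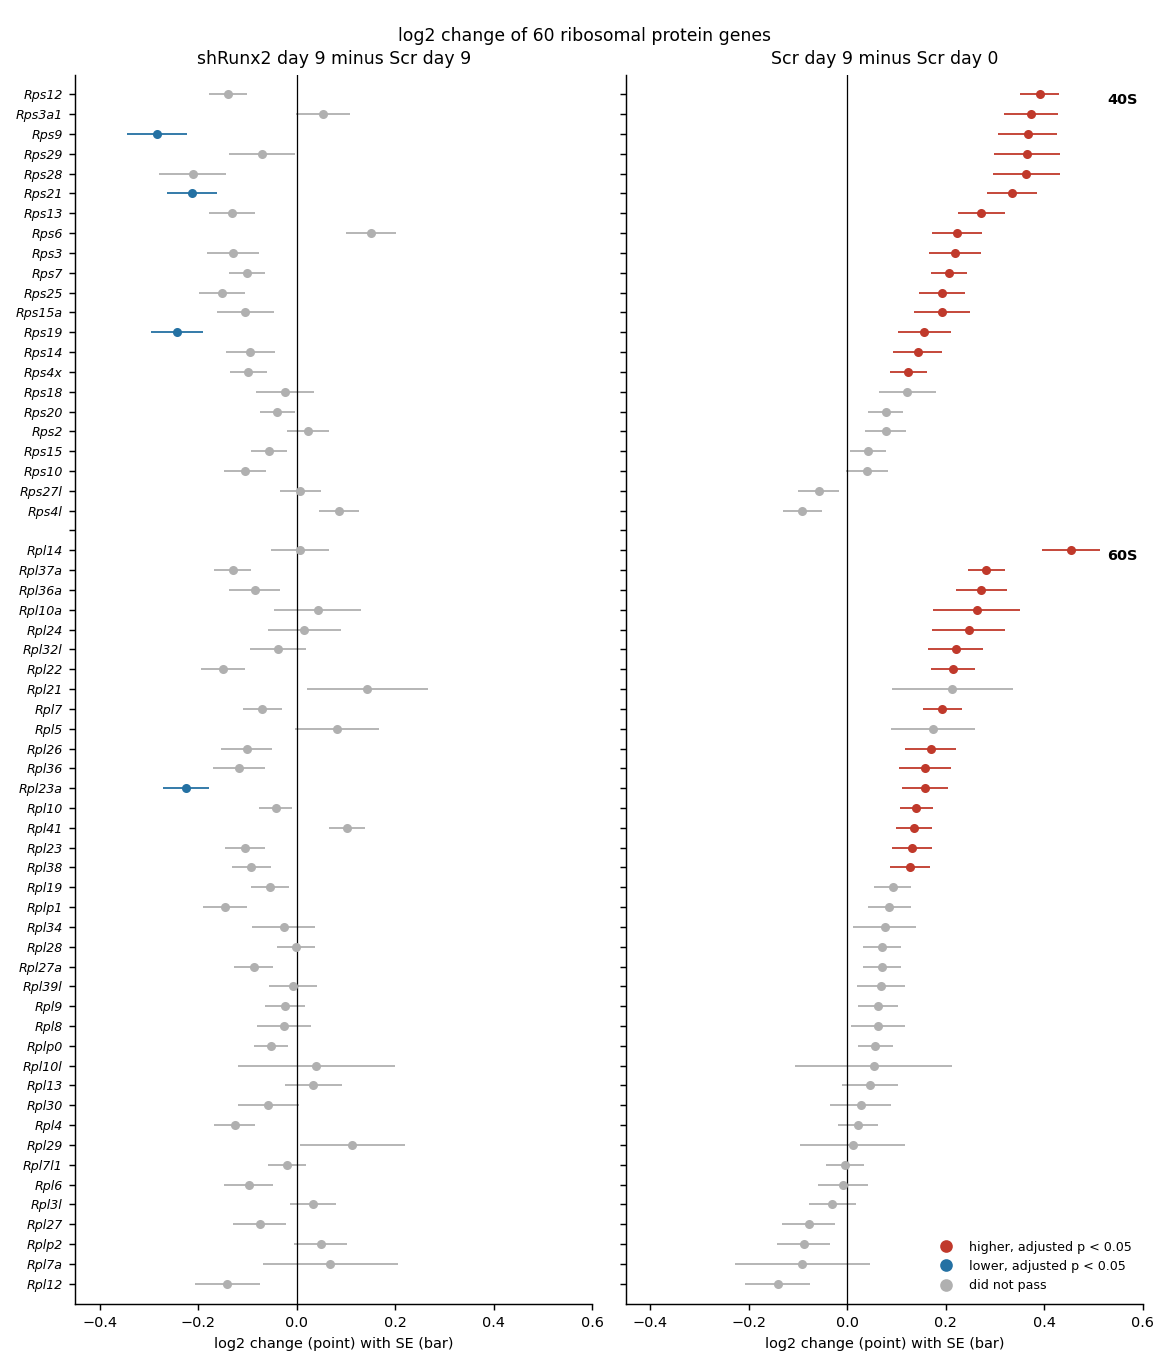
Log2 change (points) with the SE of the limma model (bars) for each of the 60 genes, 40S above and 60S below, sorted within each subunit by the differentiation change. At left, shRunx2 day 9 minus Scr day 9, 4 genes are coloured as lower; at right, Scr day 9 minus Scr day 0, 30 genes are coloured as higher and none as lower.

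The median change over the 60 genes was 0.13, against −0.02 over all genes, and 51 of the 60 (85%) lay above 0, beside 42.9% of all genes. All 3 Scr day 9 arrays exceeded all 3 Scr day 0 arrays for 34 genes (56.7%), beside 18.1% of all genes. The reverse held for 2 genes (3.33%), beside 22% of all genes, and both were 40S genes with an l symbol, Rps4l and Rps27l.

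Of the 40S genes 15 of 22 (68.2%) were higher, with a median change of 0.19, and of the 60S genes 15 of 38 (39.5%), with a median of 0.08. Without the l-symbol genes the counts were 15 of 20 and 14 of 33. No test of the difference between subunits was made. The starts of the genes called higher held the pyrimidine run about as often as the others, in 14 of 25 (56%) against 14 of 23 (60.9%) of those with a promoter entry.

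The count of 30 depended on Scr day 0 replicate 2 more than on any other array, since without it 19 genes passed, all among the 30. Subtracting the median of each array, which lay lower on the Scr day 0 arrays than on the Scr day 9 arrays, also left 19, again all among the 30. Every alternative tried kept the median change above 0.

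**Figure D3:**
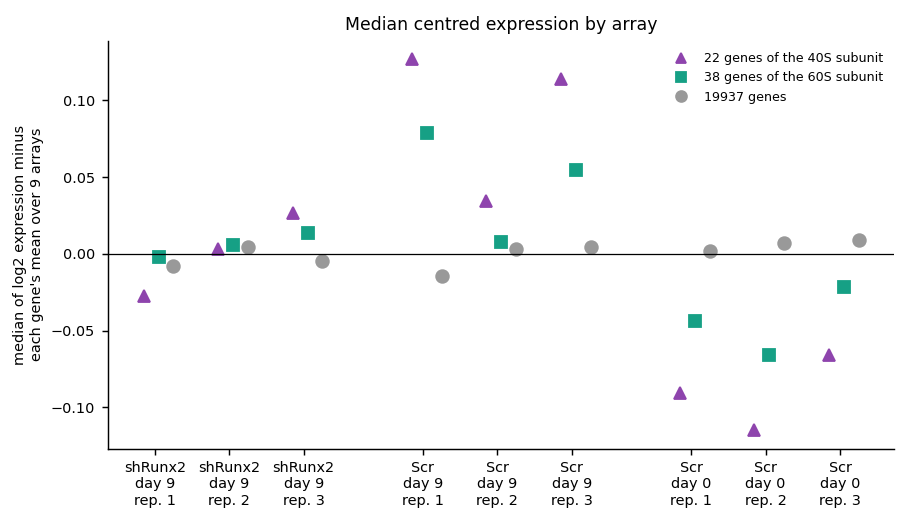
Median, on each array, of log2 expression minus each gene's mean over the 9 arrays, for the 22 genes of the 40S subunit (triangles), the 38 genes of the 60S subunit (squares) and all 19937 genes (circles). Scr day 9 replicates 1 and 3 lie highest and the Scr day 0 arrays lowest for both subunits, Scr day 9 replicate 2 lies close to the shRunx2 arrays, and all genes stay near 0.

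The array medians show how far single libraries carried these differences. The median of the 60 genes was 12.45, 12.44 and 12.53 on the shRunx2 day 9 arrays, 12.59, 12.47 and 12.55 on the Scr day 9 arrays, and 12.43, 12.37 and 12.49 on the Scr day 0 arrays. Replicate 2 was the lowest of its group in all 3 groups, and the groups overlapped on this raw scale. With each gene set against its own mean over the 9 arrays, Scr day 9 and Scr day 0 no longer overlapped, while Scr day 9 replicate 2 still lay within the shRunx2 day 9 range. The median of these centred values averaged 0.0033 ± 0.0183 in shRunx2 day 9, 0.0583 ± 0.0379 in Scr day 9 and −0.0599 ± 0.0322 in Scr day 0 (SD, n = 3). Of the 60 genes, 27, 34 and 35 exceeded their own mean on the shRunx2 day 9 arrays, 52, 39 and 54 on the Scr day 9 arrays, and 13, 11 and 23 on the Scr day 0 arrays. Scr day 9 replicate 2, with 39, was the closest of the Scr day 9 arrays to the knockdown arrays. Without replicate 2 of every group, an alternative chosen after seeing the data, no gene passed in the knockdown comparison and 17 were higher in the differentiation comparison.

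The third comparison set shRunx2 day 9 against Scr day 0. It shares arrays with both others and is given beside them without a test between comparisons. Of the 60 genes 17 (28.3%) were higher in shRunx2 day 9 and 2 (3.33%) were lower, beside 13.8% and 20.4% of all genes. Among the 9968 genes above the median level, 22.9% were higher and 38.8% lower. Of the 57 family members among those, 18 (31.6%) were higher and 3 (5.26%) lower. The median change of the 60 was 0.06, against −0.0087 over all genes, and 44 of the 60 changes (73.3%) lay above 0, beside 46.4% of all genes. For 17 genes all 3 shRunx2 arrays exceeded all 3 Scr day 0 arrays and for 2 they lay below them (28.3% and 3.33%, beside 17.7% and 24.6% of all genes). Rpl14 and Rps3a1 had the smallest adjusted p, with changes of 0.46 ± 0.06 and 0.43 ± 0.05 (limma adjusted p = 7.29e-05 and 7.52e-05). Rps12 and Rpl37a were higher too, by 0.25 ± 0.04 and 0.15 ± 0.04. For the 4 genes called in the knockdown comparison, the changes relative to Scr day 0 were 0.08 ± 0.06 in shRunx2 day 9 and 0.37 ± 0.06 in Scr day 9 for Rps9, and −0.09 ± 0.05 and 0.16 ± 0.05 for Rps19. They were 0.12 ± 0.05 in shRunx2 day 9 and 0.33 ± 0.05 in Scr day 9 for Rps21, and −0.07 ± 0.05 and 0.16 ± 0.05 for Rpl23a. The Scr day 9 changes passed for all 4 genes and the shRunx2 changes for none, and the values share the day 0 arrays. These 4 genes were picked for lower values in shRunx2 day 9 than in Scr day 9 on the same arrays. A smaller change from day 0 in shRunx2 day 9 was therefore set by that choice and is not a separate result.

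Rps9 shows this layout, with shRunx2 day 9 arrays at 12.09, 12.08 and 12.28 and Scr day 0 arrays at 11.99, 12.09 and 12.12. The groups overlapped. Rps12 differed from it, since its shRunx2 day 9 arrays, at 12.30, 12.33 and 12.33, lay between the other groups without touching either. Rpl14, at 10.26, 10.24 and 10.35 in shRunx2 day 9, overlapped Scr day 9 and exceeded Scr day 0.

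The 2 genes called lower in the third comparison fell outside the rule for naming and were picked after their values were seen. Rpl12, a protein of the stalk base, measured 9.53, 9.53 and 9.68 in shRunx2 day 9 cells, against 9.92, 9.95 and 9.71 in Scr day 0 cells, a change of −0.28 ± 0.07 (limma adjusted p = 0.00534). Rpl27 was the other lower gene (−0.15 ± 0.05), and its groups did not overlap except that shRunx2 replicate 2, at 12.71, exceeded Scr day 0 replicate 1, at 12.70. Both counts depended on single arrays. The higher count was 8 when either Scr day 0 replicate 2 or shRunx2 replicate 3 was left out, 10 when shRunx2 replicate 1 was left out, and 11 when Scr day 0 replicate 1 was left out. The lower count was 4 when shRunx2 replicate 2 was left out and 1 or 2 when any other array was.

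The stalk proteins Rplp0, Rplp1 and Rplp2 form the lateral protuberance that recruits elongation factors. On the probe sets kept for them, they passed in none of the 3 comparisons. In a fit of every probe set, the other probe set of Rplp1 was higher in Scr day 9 than in Scr day 0 (0.16, limma adjusted p = 0.0351). That of Rplp0 was not (0.02, limma adjusted p = 0.753). Rplp0, widely used as a reference transcript, measured 14.03, 13.97 and 14.02 in shRunx2 day 9 cells, 14.07, 14.03 and 14.07 in Scr day 9 cells, and 14.02, 13.98 and 14.00 in Scr day 0 cells. Rplp1 measured 13.68, 13.80 and 13.62 in shRunx2 day 9 cells, 13.85, 13.85 and 13.84 in Scr day 9 cells, and 13.76, 13.76 and 13.77 in Scr day 0 cells. For both genes shRunx2 day 9 did not overlap Scr day 9, for Rplp0 by a margin smaller than the decimals shown, but Rplp1 varied more among shRunx2 replicates than among the others, and its change of −0.15 ± 0.04 did not pass (limma adjusted p = 0.0757). Rplp2 measured 8.81, 8.84 and 8.70 in shRunx2 day 9 cells, 8.62, 8.77 and 8.81 in Scr day 9 cells, and 8.80, 8.86 and 8.81 in Scr day 0 cells. Its groups overlapped in every pairing.

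The 7 genes with an l symbol had median changes of 0.0068 in the knockdown comparison, where none passed, and −0.0056 in the differentiation comparison, where Rpl32l was higher. For the other 53 genes the medians were −0.08 and 0.14, with 4 called lower in the knockdown comparison and 29 (54.7%) called higher in the differentiation comparison. Rpl32l measured 11.90, 11.85 and 11.85 in shRunx2 day 9 cells, 11.83, 11.91 and 11.98 in Scr day 9 cells, and 11.73, 11.56 and 11.77 in Scr day 0 cells. Both day 9 groups exceeded day 0 and overlapped each other, and the differentiation change was 0.22 ± 0.06 (limma adjusted p = 0.0099).

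Rpl3l, a paralog of Rpl3 found in skeletal muscle and heart, lay between 7.29 and 7.47 on all 9 arrays. Rpl39l, known from mouse testis, lay between 6.36 and 6.57. Both were below the median of all genes, and their groups overlapped. Rpl10l, an autosomal copy that stands in for the X-linked Rpl10 in male meiosis, measured 9.11, 8.78 and 9.50 in shRunx2 day 9 cells, 9.35, 8.82 and 9.11 in Scr day 9 cells, and 9.05, 9.00 and 9.06 in Scr day 0 cells. Its SD over the shRunx2 day 9 arrays was 0.36, and over the Scr day 9 arrays 0.26. The SE of its changes was 0.16, so a change the size of the family's median was not detectable for it.

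Rps27l, a p53 target, measured 12.39, 12.42 and 12.53 in shRunx2 day 9 cells, 12.45, 12.43 and 12.44 in Scr day 9 cells, and 12.52, 12.47 and 12.52 in Scr day 0 cells. The Scr day 9 arrays lay below the Scr day 0 arrays, opposite to most of the family, but the change of −0.06 ± 0.04 did not pass (limma adjusted p = 0.356). Rpl7l1, a relative of Rpl7, stayed between 12.14 and 12.25 on all 9 arrays.

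For 3 paralogs the parent gene was measured as well, and the difference within an array, paralog minus parent, does not depend on a shift common to all probe sets of an array, although a rescaling that varies with level could move it. Rps4l minus the X-linked Rps4x was −3.78, −3.78 and −3.76 in shRunx2 day 9 cells, −4.02, −3.88 and −3.98 in Scr day 9 cells, and −3.82, −3.73 and −3.68 in Scr day 0 cells. Scr day 9 stood below both other groups without overlap, by 0.18 relative to shRunx2 day 9 and 0.22 relative to Scr day 0. An exact two-sided permutation test gave p = 0.1 for each, which is the smallest p that 3 against 3 arrays allow (adjusted over the 6 comparisons, 0.2). Rpl7l1 minus Rpl7 averaged −0.56 ± 0.07 in Scr day 9 and −0.36 ± 0.05 in Scr day 0 (SD, n = 3, exact permutation p = 0.1, adjusted 0.2). It averaged −0.51 ± 0.04 in shRunx2 day 9, which overlapped Scr day 9 (exact permutation p = 0.4). The 2 probe sets of Rps4l differed in sign in the differentiation comparison (−0.09, the one kept, and 0.06). Averaging the probe sets of each gene moved Rpl7l1 minus Rpl7 in the differentiation comparison from −0.20 to −0.12. It moved Rps4l minus Rps4x in the knockdown comparison from 0.18 to 0.11. For Rpl10l minus Rpl10 the day 9 groups overlapped each other and Scr day 9 overlapped Scr day 0 (exact permutation p = 0.8 and 0.7). The parents Rps4x, Rpl7 and Rpl10 were each higher in Scr day 9 than in Scr day 0, by 0.12 ± 0.04, 0.19 ± 0.04 and 0.14 ± 0.03, and so was Rpl22, by 0.21 ± 0.04. These are the kept probe sets. Over all probe sets of a gene the changes ran between −0.0018 and 0.44 for Rps4x and between 0.03 and 0.21 for Rpl7. For Rpl10 they ran between −0.01 and 0.55.

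Ribosomal protein genes have many processed pseudogenes, and probes may bind transcripts of near-identical copies, so values of a single probe set are uncertain in a way that replicates do not show. In all, 188 probe sets carried a symbol of the family, 37 genes had several, up to 10 for Rpl23a, and 23 had 1. In a fit of all 34760 probe sets, 49 of the 188 (26.1%) were higher in Scr day 9 than in Scr day 0 and none was lower, beside 11.1% and 10.8% of all probe sets. Of the 128 probe sets not used for the gene values, 29 (22.7%) were higher and none lower. A further 207 probe sets carry several symbols with at least 1 of the family, and 38 of these (18.4%) were higher and none lower. For 25 of the 37 genes all probe sets had changes of 1 sign in the differentiation comparison, and for 14 of the 37 in the knockdown comparison.

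Agreement differed by gene. The 2 probe sets of Rps9 gave differentiation changes of 0.37 and 0.37, and the knockdown changes were −0.28 and −0.18. For Rps21 they were 0.33 and 0.28, and −0.21 and −0.36 in the knockdown comparison. The 7 probe sets of Rps12 ran between −0.04 and 0.39, the one kept, for differentiation, and 2 passed. The 8 probe sets of Rpl9, the gene with the highest level, ran between 0.06, the one kept, and 0.48. Of these 3 passed, and the one kept did not. The 10 probe sets of Rpl23a gave knockdown changes between −0.23, the one kept, and 0.14. None of the 188 probe sets passed in the knockdown comparison in this fit, where the adjustment covers more tests. Averaging the probe sets of Rpl23a gave −0.05 (limma adjusted p = 0.725).

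**Figure D4:**
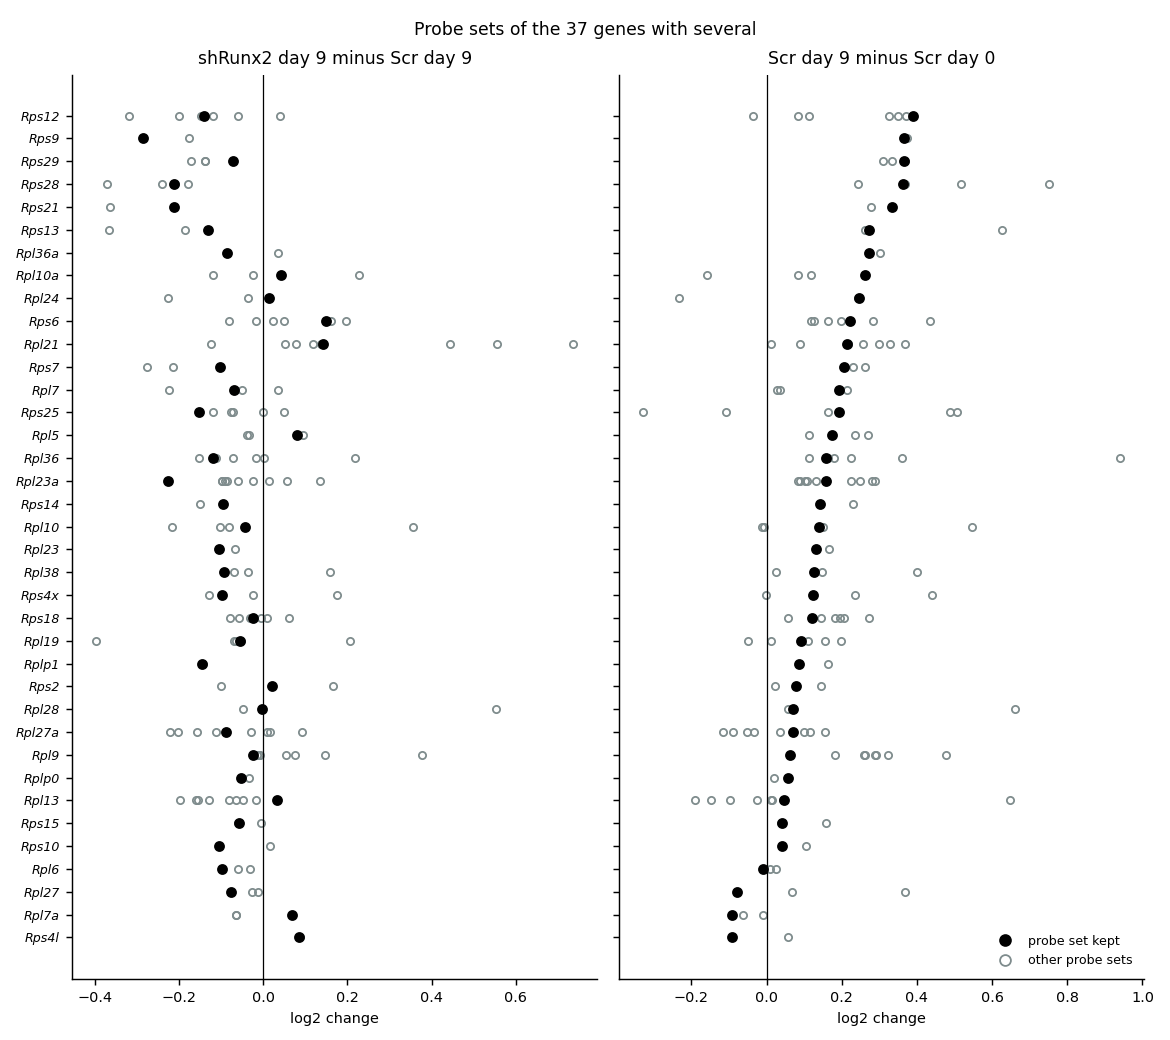
Log2 change of every probe set of the 37 genes with several, for shRunx2 day 9 minus Scr day 9 (left) and Scr day 9 minus Scr day 0 (right), with the probe set kept for the gene filled and the others open. Most points at right lie above 0, while those at left lie on both sides of it for many genes.

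Other genes of the translation machinery were taken from lists of known function. Their counts are to be set beside the shares of all genes, 2.73% higher and 4.66% lower in the knockdown comparison and 14.5% higher and 17.1% lower in the differentiation comparison. Among the 9968 genes above the median level, 5.16% were higher and 12.1% lower in the knockdown comparison. In the differentiation comparison 25.9% of those genes were higher and 32.4% lower. Mitochondrial ribosomal proteins, which serve the separate ribosome of the mitochondrion, had 14 of 77 higher (18.2%) and 12 lower (15.6%) in Scr day 9 than in Scr day 0, shares close to those of all genes, and a median change of −0.03. Mrps18b was lower by 1.42 fold (−0.51 ± 0.06) and Mrpl1 was higher by 1.28 fold (0.35 ± 0.06). With knockdown, 1 of the 77 was higher (Mrpl12) and 1 lower (Mrpl24), and the median was −0.03. The cytosolic family thus had a larger share of higher genes (50% against 18.2%), a difference that was not tested.

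Of 58 genes of ribosome biogenesis and ribosomal RNA synthesis, 27 (46.6%) were lower in Scr day 9 than in Scr day 0, 3 were higher and 28 did not pass, with a median change of −0.11. The share called lower was 17.1% of all genes and 32.4% of the genes above the median level. Utp20, a component of the small subunit processome, changed by −0.62 ± 0.05 (1.53 fold lower), Rrp1b by −0.55 ± 0.04, Mybbp1a by −0.38 ± 0.04 and Noc4l by −0.36 ± 0.04. In the knockdown comparison 3 of the 58 were lower and none higher, with a median of −0.07. They were Ltv1, a 40S assembly factor (−0.44 ± 0.05, limma adjusted p = 3.8e-04), Polr1c, a subunit shared by RNA polymerases I and III (−0.27 ± 0.05), and Taf1d, of the polymerase I initiation factor SL1 (−0.28 ± 0.06). Polr1c was 1 of the 3 higher genes in differentiation (0.18 ± 0.05).

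Of 30 translation initiation factors, 11 (36.7%) were lower in Scr day 9 than in Scr day 0 and 1 was higher, with a median change of −0.04. The share called lower was close to the 32.4% of the genes above the median level. The largest of those named were Eif6, which keeps the subunits apart until the 60S is mature (−0.91 ± 0.05, 1.88 fold lower), and Eif3c (−0.67 ± 0.04). Eif2b3 and Eif3b were lower by 1.34 and 1.19 fold. Between shRunx2 day 9 and Scr day 9, 4 of 30 were lower and none higher, with a median of −0.07. They were Eif3i (−0.30 ± 0.05), Eif3m (−0.30 ± 0.07), Eif3c (−0.24 ± 0.04) and Eif3h (−0.15 ± 0.04).

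Elongation factors and other products of TOP mRNAs had a median change of 0.05 in differentiation, with 2 of 13 higher and 1 lower. The 2 higher were Pfdn5, a prefoldin subunit (0.44 ± 0.05), and Tpt1, the translationally controlled tumour protein (0.20 ± 0.04), and Eef1d was lower (−0.17 ± 0.05). In the knockdown comparison Eef1b2 (−0.18 ± 0.03) and Eif4b, also an initiation factor (−0.17 ± 0.03), were lower, and the median was −0.05. Of 7 ribosomal proteins whose symbols fall outside the rule, Rpsa and Fau were measured, and neither passed in either comparison. Their knockdown changes were −0.15 ± 0.07 and −0.11 ± 0.04, and their differentiation changes 0.11 ± 0.07 and 0.03 ± 0.04.

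**Figure D5:**
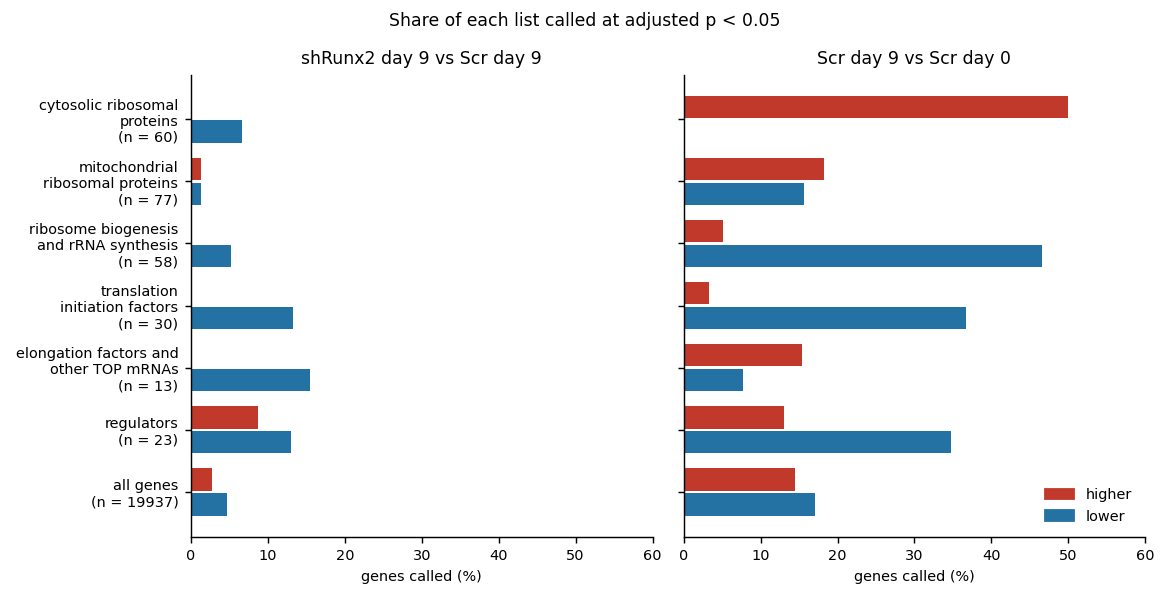
Share of each gene list called higher or lower at a limma adjusted p under 0.05, for shRunx2 day 9 against Scr day 9 (left) and Scr day 9 against Scr day 0 (right), with the number of genes measured and all 19937 genes at the bottom. At right the cytosolic ribosomal proteins show 50% higher and none lower, and ribosome biogenesis shows 46.6% lower.

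Among 23 regulators of ribosomal protein synthesis, 8 were lower and 3 higher in Scr day 9 than in Scr day 0, with a median change of −0.03. Mxd4, a Max partner that opposes Myc, was higher by 0.80 ± 0.04 and Mxd1 by 0.30 ± 0.05. Eif4ebp1, the mTORC1 target that holds back cap-dependent initiation, changed by −0.71 ± 0.05, and Deptor, an inhibitor within mTOR complexes, by −0.52 ± 0.06. With knockdown, 2 of the 23 were higher, Deptor (0.25 ± 0.06) and the S6 kinase gene Rps6kb2 (0.25 ± 0.05), and 3 were lower, among them Eif4ebp1 (−0.19 ± 0.05) and Mxd4 (−0.14 ± 0.04). The median there was −0.07.

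Of 13 p53 targets, followed because free ribosomal proteins can stabilize p53 through Mdm2, 6 were lower and 2 higher in Scr day 9 than in Scr day 0. Sesn1 was higher by 1.32 ± 0.03, and Mdm2 changed by −0.42 ± 0.04. Lower in shRunx2 day 9 than in Scr day 9 were 3 of them, Sesn1 (−0.59 ± 0.03), Ccng1 (−0.23 ± 0.04) and Eda2r (−0.23 ± 0.06). Host transcripts of small nucleolar RNAs, which like ribosomal protein mRNAs often carry a TOP element, were measured for 6 of 17 genes. Gas5 was lower in shRunx2 day 9 than in Scr day 9 (−0.32 ± 0.05, limma adjusted p = 0.00346) and did not pass in differentiation, where Snhg17 was higher (0.30 ± 0.07) and Snhg16 lower (−0.19 ± 0.06). Common reference genes had median changes of −0.03 and −0.02. Of 11 measured, Pgk1 was lower in shRunx2 day 9 than in Scr day 9, and 3 were lower and 2 higher in Scr day 9 than in Scr day 0, with Tfrc changing by −1.70 ± 0.06. Beside the counts of this paragraph, 2.73% of all genes were higher and 4.66% lower in the knockdown comparison. In differentiation the shares were 14.5% higher and 17.1% lower.

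Within the family the signed change had little relation to the level of the gene, with each gene given by its brightest probe set. Differences among the probe sets of a gene do not enter here. Across the 60 genes, which share arrays and probes of related sequence, Pearson's r between mean level and change was −0.18 in the knockdown comparison and 0.19 in the differentiation comparison. This is a description across genes and not a test.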

How the data were processed

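RNA of 9 MC3T3-E1 samples, 3 groups of 3 biological replicates, was measured on Affymetrix Mouse Gene 1.0 ST arrays. The deposited values are log2 expression values, which the authors made with RMA (background correction, quantile normalization and median polish). The submitters' processing notes name RMA and limma. A filter that the study's methods mention is not described there, and the genome build behind the array annotation is not given in the sources used here. Quantile normalization removes most of a shift shared by all transcripts, so such a shift would not be seen. No read depth applies, so the precision rests on the number of arrays.

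Symbols came from the platform annotation, in which 21640 of 34760 probe sets carry 1 symbol, 1321 several and 11799 none. Genes with several probe sets kept the one with the highest mean over the 9 arrays. Groups were compared in R 4.3.3 with a limma 3.58.1 model of group means over all 9 arrays (lmFit, eBayes), with Benjamini-Hochberg adjustment over 19937 genes, no filter, and a threshold of 0.05. "Higher", "lower" and "passed" refer to that threshold. The method was tested on simulated data before use. Changes are log2 differences with the SE of the model. Paralog and parent differences within an array were tested by exact permutation over samples.

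Every family member was counted. Those named with values were the up to 6 called genes with the smallest adjusted p in each direction of the first 2 comparisons, paralogs with their parents, the stalk proteins, the 2 genes just inside and the 2 just outside the threshold in the knockdown comparison, and the genes with the highest and lowest level. Of each other list, up to 4 genes with the smallest adjusted p in each of these comparisons could be named. The family and the 15 lists were chosen with earlier results of these data known, so no test of a list was made. Alternatives covered the arrays left out, the replicate number as a block, the groups fitted, a filter on level, the choice of probe set, array scaling, and options of limma. Sequences are from RefSeq (GRCm38.p6), and all 60 genes were found in its gene table. A few other genes, Runx2 among them, are not reported here.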

Additional observations from a re-analysis of the deposited data

How the results depend on the processing

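The median changes of the 60 genes kept their direction under every alternative run, between −0.0871 and −0.0270 in the knockdown comparison, 0.0754 and 0.150 in the differentiation comparison, and 0.0276 and 0.0751 for shRunx2 day 9 against Scr day 0. The counts moved more, and except where fewer tests or fewer arrays entered, the cause was not tested. In the knockdown comparison 4 genes were lower, against 10 among genes above the median level, 0 with every probe set tested, 7 with array weights (and 2 higher), 9 with an intensity trend, and, chosen after seeing the data, 1 among genes with 1 probe set and 0 without replicate 2 of every group. Leaving out 1 array gave 0 to 5. Each of the 4 calls was lost under 7 alternatives. In differentiation 30 were higher, against 19 with array medians subtracted, 10 among the 23 genes with 1 probe set, 17 without replicate 2 of every group, and 19 to 28 with 1 array left out (0 to 1 lower). For shRunx2 day 9 against Scr day 0, 17 were higher, against 9 with every probe set tested, 9 with array medians subtracted, 5 among genes with 1 probe set, 7 without replicate 2 of every group, and 8 to 17 with 1 array left out. The 2 lower genes became 1 with the 2 groups alone, every probe set, the mean of probe sets, quantile normalization, genes with 1 probe set or no replicate 2, became 4 with array medians subtracted and 5 with the lowest probe set of a gene, and were 1 to 4 with 1 array left out.

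The lowest probe set of a gene (chosen after seeing the data) turned the differentiation change of Rpl10 to −0.012 and that of Rps4x to −0.0018, and the change of Rpl10 in shRunx2 day 9 against Scr day 0 to −0.11, which quantile normalization turned to −0.042. Over all genes, quantile normalization moved the share of knockdown calls that were higher to 47.9%, against 36.9% as reported, and subtracting array medians moved that of differentiation to 36%, against 45.9%. Replicate numbers were not taken to pair the samples, since over all genes 3 of 9 same-numbered pairs had deviations correlated above 0.1 (range −0.11 to 0.29) and over the 60 genes 4 of 9 did (range −0.29 to 0.65), among them the 3 pairs of replicate 2. With the replicate number as a block, 5 genes were lower in the knockdown comparison, 31 higher in differentiation, and 16 higher and 2 lower in shRunx2 day 9 against Scr day 0. No group of 4 or more arrays existed to test for outlying arrays.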
